A study of Mus musculus with 4 samples.

Results

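The 37 genes described here encode the enzymes that break down fatty acids by beta-oxidation in mitochondria and peroxisomes, the enzymes that interconvert ketone bodies, and 2 of their regulators. They were chosen by name out of the 38924 genes listed in each kidney library, and all 37 had enough reads to be tested. By the compartment in which the protein acts, 24 are mitochondrial, 7 peroxisomal, 5 belong to several compartments or to the cytosol (Acsl1, Crat, Acad11, Eci2 and Acot1), and 1, Ppara, is nuclear. The kidneys came from female CB-17 SCID mice, an immunodeficient strain of Balb/c background that lacks working T and B cells. In 2 of the samples the mice had received immune complexes of IgG with galactose-deficient IgA1, the form of IgA1 that carries the autoantigen in IgA nephropathy. In the other 2 they had received saline. Both were injected into the tail vein 3 times within 7 days, and a piece of kidney was taken into RNAlater a day after the last injection. The labels give no ages. The complexes were transferred ready-made, so the mice are a passive model, and the labels do not say that each sample came from its own mouse. The p-values and errors therefore measure the spread between these samples.

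The kidney burns fat: the proximal tubule, which has the highest transport load of the nephron, draws most of its ATP from fatty acids, in mitochondria. A fatty acid is first joined to coenzyme A, passes the mitochondrial membranes as a carnitine ester, and is then shortened in a repeating spiral of dehydrogenation, hydration, a further dehydrogenation and thiolytic cleavage. Peroxisomes run a similar spiral with oxidases in place of the first dehydrogenases and shorten very long, branched and dicarboxylic acids. PPAR-alpha, a nuclear receptor for fatty acids, switches on most of these genes during fasting.

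Reads assigned to genes came to 22791960 and 21681408 in the immune complex libraries and 19675879 and 20950134 in the saline libraries. The 37 genes took 0.976% and 1.10% of them in immune complex kidneys and 0.976% and 1.14% in saline kidneys. Levels of a single gene are given below in CPM, read counts scaled to library size. Comparisons between genes use the authors' RPKM, which also divides by exon length. Differences are log2 fold changes of immune complex over saline from edgeR with their standard errors (n = 2 libraries in each group).

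None of the 37 genes passed the test. By edgeR's quasi-likelihood test with Benjamini-Hochberg adjustment over 16334 genes, 0 of 37 were called at an adjusted p under 0.05, where 0% of all tested genes were called, and each of the 37 had an adjusted p of 1.0. Before adjustment 0 of 37 had a p under 0.05, where 4.59% of all tested genes did. DESeq2 called 0 of the 37 (0 before adjustment) and 0.612% of all genes. By limma-voom 0 of the 37 were called (0 before adjustment) and 0 of all genes. Over all 16334 tested genes, DESeq2 had 615 and limma-voom 742 with an unadjusted p under 0.05. The log2 differences were above 0 for 22 genes and below 0 for 15, so 59.5% were higher in immune complex kidneys, against 51.9% of all tested genes. Their median was 0.021, against 0.010 over all genes, and their median size without the sign was 0.12, against 0.16.

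Both immune complex libraries were above both saline libraries for 6 of the 37 genes, 16.2%, near the 15.4% of all tested genes. These were Acox3, Hadhb, Acadl, Acad11, Ppara and Hsd17b4. Both were below for 3 genes, Acot2, Decr2 and Cpt1a, or 8.11%, against 14.6% of all tested genes. In either direction it was 9 genes of 37, against 30.0% of all. Leaving out a library makes that condition easier to meet by construction, and the matching share of all tested genes was not computed. The count of higher genes was then 6 without saline 1, 18 without saline 2, 15 without immune complex 1 and 17 without immune complex 2, and that of lower genes was 11, 3, 10 and 10 in the same order. The 95% interval of the difference held 0 for all 37 genes, and no upper bound reached 1 on the log2 scale, the highest being 0.96 for Acadm. The lower bound was under -1 for 3 genes, Pdk4, Acot2 and Ehhadh.

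**Figure D1:**
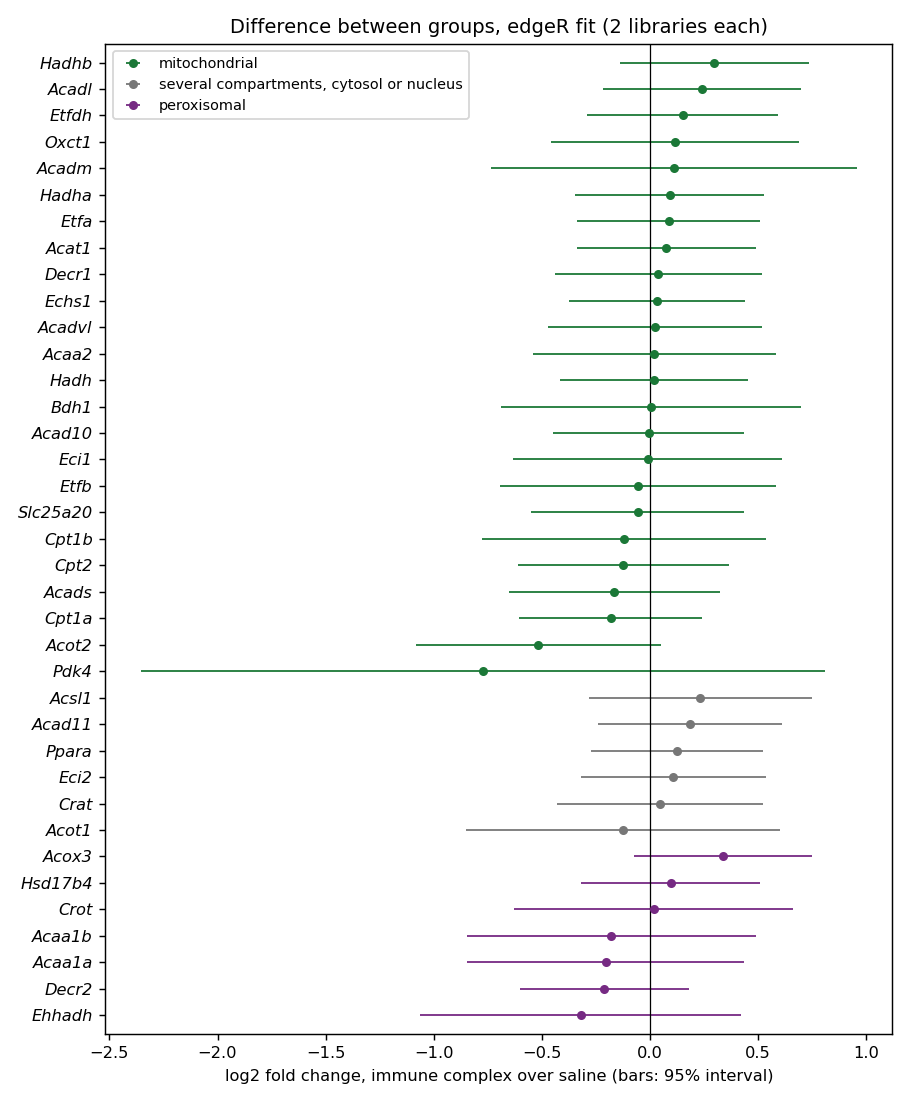
Log2 fold change of immune complex over saline for each of the 37 genes, with its 95% interval from edgeR (2 libraries in each group), coloured by compartment and sorted within it. Every bar crosses 0, and Pdk4 has the widest, from -2.35 to 0.81.

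Per length of transcript, the order of the genes was led by Etfb, Acadm and Oxct1. Etfb, a subunit of the flavoprotein that passes electrons from the dehydrogenases to the respiratory chain, had 466.3 and 283.7 RPKM in immune complex kidneys and 375.5 and 437.7 RPKM in saline kidneys. Acadm, the medium-chain acyl-CoA dehydrogenase, had 272.5 and 544.9 RPKM in immune complex kidneys and 324.1 and 463.7 RPKM in saline kidneys. Oxct1, which activates acetoacetate so that ketone bodies can be burned, had 271.2 and 416.6 RPKM in immune complex kidneys and 326.4 and 336.9 RPKM in saline kidneys. The libraries of these leaders overlapped, so their order was not resolved. By the saline means, Ehhadh (222.7 RPKM), Acaa2 (206.1 RPKM), Etfa (188.7 RPKM) and Acaa1b (179.0 RPKM) followed. At the low end stood Cpt1b with 2.52 RPKM, below Acox3 with 9.98 RPKM and Ppara with 12.3 RPKM in saline kidneys.

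**Figure D2:**
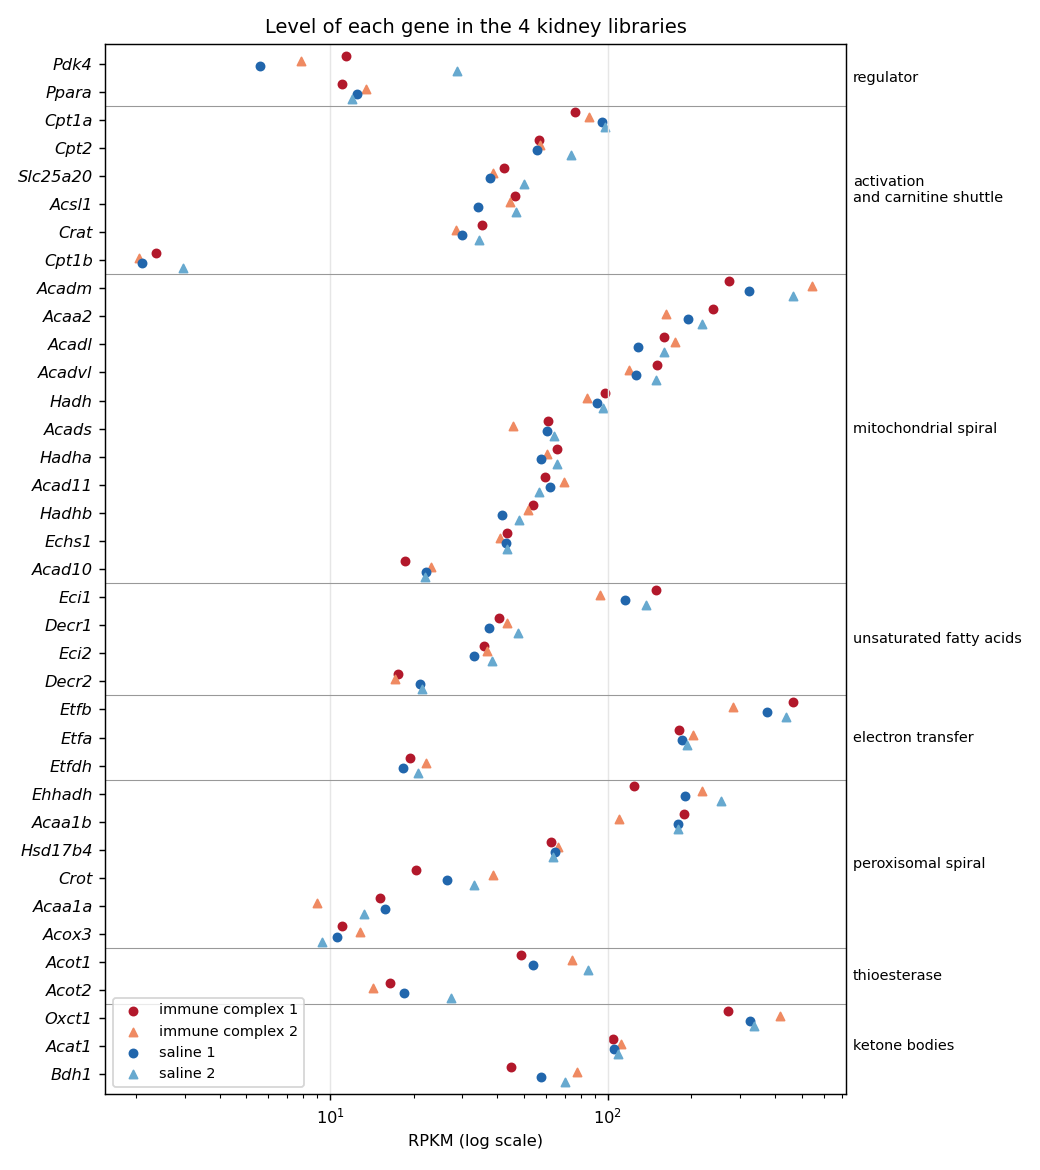
RPKM on a log axis of each gene in the 2 immune complex libraries (red and orange) and the 2 saline libraries (dark and light blue), grouped by role and sorted within it. The genes span from 2.05 RPKM, Cpt1b in immune complex 2, to 544.9 RPKM, Acadm in immune complex 2.

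The regulators were low and the receptor varied little. Ppara had 51.9 and 57.2 CPM in immune complex kidneys, against 48.7 and 51.4 CPM in saline kidneys, a difference of 0.12 ± 0.17. Its groups touched without overlapping on this scale and overlapped in RPKM, which uses exon reads alone (11.03 and 13.5 RPKM against 12.5 and 12.0 RPKM). Pdk4, a kinase that shuts pyruvate dehydrogenase and so turns cells from glucose to fat, had 41.7 and 29.0 CPM in immune complex kidneys, against 19.5 and 101.2 CPM in saline kidneys. Both immune complex values lay between the saline values, which were 2.38 apart on the log2 scale, the widest replicate gap of the 37 genes. The difference of -0.77 ± 0.66 depended on which saline library was kept. Without saline 1 it was -1.52, with an adjusted p of 0.0309 by edgeR's quasi-likelihood test with Benjamini-Hochberg adjustment, and without saline 2 it was 0.85 (adjusted p = 0.824 by the same test).

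PPAR-alpha binds with its partner RXR to a direct repeat of AGGTCA with 1 base between the copies, and promoter windows of 250 bases before to 50 after the start (RefSeq, GRCm38.p6) were searched for it on both strands. The full repeat stood in 0 of the 33 windows of 31 members and in 0.0396% of all 32851 windows. With copies loosened to AGGNCA it stood in 0 of 33 and in 0.381% of all. Repeats this rare are absent from most sets of 33 windows, so these counts cannot set the members apart. Bases outside the windows were not searched. The single copy AGGTCA, which the full repeat contains, stood in 4 of 33 windows, those of Acadm, Acadvl, Cpt1a and Echs1, a share of 12.1% against 16.3% of all. CCAAT stood in 15 of 33, or 45.5%, against 37.4% of all. The windows of Acadm, the most abundant dehydrogenase (chr3:153944594-153944893, minus strand), and of Cpt1a, the entry enzyme of the pathway (chr19:3323051-3323350, plus strand), are shown 5′ to 3′. Capitals mark the AGGTCA match, which reads TGACCT because it lies on the opposite strand of each gene.
Acadm: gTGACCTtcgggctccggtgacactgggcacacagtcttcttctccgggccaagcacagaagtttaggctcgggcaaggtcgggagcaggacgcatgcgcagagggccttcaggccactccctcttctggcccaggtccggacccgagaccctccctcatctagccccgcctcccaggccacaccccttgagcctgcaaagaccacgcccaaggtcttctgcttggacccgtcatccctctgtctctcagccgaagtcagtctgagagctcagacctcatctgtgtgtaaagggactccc
Cpt1a: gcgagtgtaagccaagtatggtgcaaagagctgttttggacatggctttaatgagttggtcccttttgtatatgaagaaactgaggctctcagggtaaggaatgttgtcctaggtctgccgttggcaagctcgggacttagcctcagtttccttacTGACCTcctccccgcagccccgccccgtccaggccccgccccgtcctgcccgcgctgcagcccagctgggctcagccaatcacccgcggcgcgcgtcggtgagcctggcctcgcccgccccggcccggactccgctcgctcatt
The match lies at bases -249 to -244 before the Acadm start and at -94 to -89 before the Cpt1a start.

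Among the 6 genes of activation and of the carnitine shuttle, 2 differences were above 0 and 4 below. Cpt1a, the carnitine palmitoyltransferase of the outer mitochondrial membrane that controls entry, had 341.4 and 382.8 CPM in immune complex kidneys, against 399.5 and 421.9 CPM in saline kidneys. Both immune complex values were the lower, by -0.18 ± 0.18. Cpt1b, the isoform of muscle and brown fat, had 8.38 and 7.14 CPM in immune complex kidneys, against 6.89 and 9.98 CPM in saline kidneys, and the groups overlapped (-0.12 ± 0.27). Cpt2, which returns the acyl group to coenzyme A inside, had 140.2 and 141.3 CPM in immune complex kidneys, against 130.3 and 176.2 CPM in saline kidneys. Both immune complex values lay between the saline values (-0.12 ± 0.20). Acsl1, which joins long-chain fatty acids to coenzyme A, had 454.7 and 438.0 CPM in immune complex kidneys, against 316.3 and 443.0 CPM in saline kidneys, and saline 1 stood below the rest (0.23 ± 0.22). It is also an abundant gene of adipocytes, whose markers are given below. Slc25a20, the carrier that exchanges acylcarnitine for carnitine, and Crat, which handles short acyl groups, differed by -0.056 ± 0.21 and 0.048 ± 0.20. Cpt1b reads are uncertain, since 22.4% of them were placed at 1 location and the gene model of Chkb in the files extends over Cpt1b (chr15:89416405-89425863).

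Of the 11 genes of the mitochondrial spiral, 9 differences were above 0 and 2 below, with a median of 0.033. Groups were apart for 3 higher genes and 0 lower ones, 27.3% and 0%, against 15.4% and 14.6% of all tested genes. Acadvl, Acadl, Acadm and Acads, the dehydrogenases of very long, long, medium and short acyl chains, make the first step. Acadl had 388.7 and 398.6 CPM in immune complex kidneys, against 295.8 and 370.2 CPM in saline kidneys. Its groups stood apart by 0.24 ± 0.19, with saline 2 near the immune complex values. Acadm had 822.9 and 1644 CPM in immune complex kidneys, against 925.8 and 1360.0 CPM in saline kidneys. Immune complex 2 had the highest and immune complex 1 the lowest value, so that the replicates lay 1.0 apart on the log2 scale and the groups 0.11 ± 0.35. Acadvl had 413.6 and 329.2 CPM in immune complex kidneys, against 329.2 and 400.3 CPM in saline kidneys, and the pairs almost coincided (0.026 ± 0.21). Acads had 142.2 and 106.3 CPM in immune complex kidneys, against 133.1 and 145.4 CPM in saline kidneys (-0.16 ± 0.20). Acad11, a dehydrogenase found in mitochondria and peroxisomes, had 275.5 and 313.5 CPM in immune complex kidneys, against 265.2 and 252.1 CPM in saline kidneys. Its groups stood apart by 0.19 ± 0.18, and 14.4% of its reads lay in introns. Acad10, the least abundant dehydrogenase of the spiral per length, differed by -0.0056 ± 0.18.

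Hadha and Hadhb, the alpha and beta subunits of the trifunctional protein that carries out the later steps on long chains, are neighbours on chromosome 5 and are read in opposite directions from a shared promoter. Only 85 bases lie between their first bases. The window chr5:30155003-30155302 (GRCm38.p6, RefSeq, plus strand) is shown because both members start in it, and capitals run from the first base of Hadha to the first base of Hadhb.
Hadha-Hadhb shared promoter: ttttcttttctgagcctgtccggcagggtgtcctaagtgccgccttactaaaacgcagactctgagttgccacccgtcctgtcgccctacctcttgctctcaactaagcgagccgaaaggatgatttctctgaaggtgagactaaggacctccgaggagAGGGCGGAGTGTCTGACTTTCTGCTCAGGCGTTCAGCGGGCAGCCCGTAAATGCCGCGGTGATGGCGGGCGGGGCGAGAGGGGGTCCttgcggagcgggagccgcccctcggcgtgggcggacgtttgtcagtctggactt
Hadha had 361.5 and 332.1 CPM in immune complex kidneys, against 300.2 and 350.9 CPM in saline kidneys, and the groups overlapped (0.091 ± 0.18). Hadhb had 365.4 and 352.1 CPM in immune complex kidneys, against 267.0 and 316.3 CPM in saline kidneys. Both immune complex values were the higher (0.30 ± 0.18), and saline 1 was the lowest library for both subunits. Only 11.9% of Hadhb reads were placed at 1 location, and the processed pseudogene Gm13910 on chromosome 2 matches it at 99.8% over 1428 bases. Hadhb reads placed at 1 location, not scaled to library size, numbered 903 and 959 in immune complex kidneys, against 640 and 802 in saline kidneys. The immune complex libraries also had more reads in all. After scaling, the edgeR difference from reads placed at 1 location was 0.31.

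The remaining genes of the spiral act on shorter chains. Echs1, the short-chain hydratase, varied least of the 37 genes, by 0.093 on the log2 scale between its lowest and highest library. Hadh, the short-chain hydroxyacyl-CoA dehydrogenase, differed by 0.020 ± 0.18. Acaa2, the thiolase that releases acetyl-CoA, had 372.1 and 253.0 CPM in immune complex kidneys, against 286.0 and 330.1 CPM in saline kidneys. Its immune complex values lay on either side of both saline values.

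Unsaturated fatty acids need isomerases and reductases to pass through the spiral, and 2 of these 4 differences were above 0 and 2 below. Decr2, the peroxisomal dienoyl-CoA reductase, had 43.2 and 41.4 CPM in immune complex kidneys, against 47.7 and 50.2 CPM in saline kidneys. Its groups were apart with both immune complex values the lower (-0.21 ± 0.16), and its standard error was the smallest of the 37 genes. Decr1, the mitochondrial reductase, differed by 0.039 ± 0.20. Eci1, the mitochondrial enoyl-CoA isomerase, had 170.5 and 107.7 CPM in immune complex kidneys, against 124.7 and 155.5 CPM in saline kidneys, which lay between them. Eci2, the isomerase also found in peroxisomes, differed by 0.11 ± 0.18, and 52.5% of its reads were placed at 1 location, and the neighbouring copy Eci3 is 91.8% identical.

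The 3 electron transfer genes had overlapping groups. Etfb had 548.0 and 335.1 CPM in immune complex kidneys, against 417.5 and 499.0 CPM in saline kidneys, and immune complex 1 was the highest and immune complex 2 the lowest. Etfa, its partner in the same heterodimer, had 342.6 and 383.7 CPM in immune complex kidneys, against 330.5 and 353.2 CPM in saline kidneys, with the immune complex replicates in the opposite order. The differences between groups were -0.054 ± 0.27 for Etfb and 0.087 ± 0.18 for Etfa. For Etfdh, the oxidoreductase that hands the electrons on to ubiquinone, the difference was 0.15 ± 0.19.

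Of the 6 genes of the peroxisomal spiral, 3 differences were above 0 and 3 below. Acox3, an acyl-CoA oxidase of branched chains, had 109.7 and 123.3 CPM in immune complex kidneys, against 95.9 and 88.4 CPM in saline kidneys. Both immune complex values were the higher (0.34 ± 0.17), the largest positive difference of the 37 genes. Ehhadh, the bifunctional enzyme that hydrates and dehydrogenates dicarboxylic and straight chains, had 385.1 and 681.1 CPM in immune complex kidneys, against 556.1 and 774.7 CPM in saline kidneys. Immune complex 1 was the lowest and saline 2 the highest (-0.32 ± 0.31). Hsd17b4, the bifunctional enzyme of branched and very long chains, had 288.5 and 318.7 CPM in immune complex kidneys, against 282.4 and 285.4 CPM in saline kidneys. Its groups touched without overlapping (0.097 ± 0.17), and 25.6% of its reads lay in introns. Crot, the octanoyltransferase that passes shortened chains on as carnitine esters, had 159.6 and 259.3 CPM in immune complex kidneys, against 183.3 and 230.2 CPM in saline kidneys, which lay between them (0.018 ± 0.27).

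Acaa1a and Acaa1b, the paired thiolases of the peroxisome, lie close together on chromosome 9 and share 96.5% of their coding bases, with an identical run of 327 bases. Acot1 and Acot2, thioesterases of the cytosol and of mitochondria that split acyl-CoA back to fatty acid, lie next to each other on chromosome 12. Their transcripts are 95.1% identical over 1274 aligned bases. Their coding sequences are 85.6% identical over 1380 alignment columns, gaps counted, with an identical run of 273 bases. Reads from such a run cannot be given to either copy, so 150 bases of each run are shown (GENCODE M21 coding sequence, 5′ to 3′, from coding base 748 of both thiolases and from coding base 887 of Acot1 and 1010 of Acot2). No capitals are used, since every base is shared.
Acaa1a and Acaa1b: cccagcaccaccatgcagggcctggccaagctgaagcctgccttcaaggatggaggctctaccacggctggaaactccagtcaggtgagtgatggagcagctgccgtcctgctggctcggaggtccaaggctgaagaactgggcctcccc
Acot1 and Acot2: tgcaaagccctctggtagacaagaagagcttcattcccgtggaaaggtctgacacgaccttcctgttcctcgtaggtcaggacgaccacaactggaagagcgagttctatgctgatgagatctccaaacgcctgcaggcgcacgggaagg
The reads of Acaa1a, Acaa1b, Acot1 and Acot2 were placed at 1 location for 46.3%, 51.8%, 53.3% and 61.6%, so the split within each pair is uncertain.

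Acaa1b had 412.7 and 236.1 CPM in immune complex kidneys, against 352.7 and 381.0 CPM in saline kidneys. Acaa1a had 69.0 and 40.9 CPM in immune complex kidneys, against 68.2 and 58.4 CPM in saline kidneys. In both thiolases immune complex 1 was the highest and immune complex 2 the lowest, so the groups overlapped (-0.18 ± 0.28 and -0.20 ± 0.27). Acot2 had 36.97 and 32.2 CPM in immune complex kidneys, against 39.4 and 59.5 CPM in saline kidneys. Both immune complex values were the lower, by -0.52 ± 0.24, and this had the lowest unadjusted p of the 37 genes, 0.0687 by edgeR's quasi-likelihood test (adjusted p = 1.0). Acot2 reads placed at 1 location, not scaled to library size, numbered 496 and 423 in immune complex kidneys, against 487 and 788 in saline kidneys. After scaling, the edgeR difference from reads placed at 1 location was -0.54. Acot1 had 78.2 and 120.5 CPM in immune complex kidneys, against 82.6 and 133.9 CPM in saline kidneys, and its groups overlapped (-0.12 ± 0.30). In Acot1 the second library of each group was the higher, whereas in Acot2 this was so in saline kidneys alone.

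The 3 ketone body genes had differences above 0 and overlapping groups. Bdh1, which interconverts beta-hydroxybutyrate and acetoacetate, had 175.5 and 305.3 CPM in immune complex kidneys, against 212.6 and 266.5 CPM in saline kidneys, which lay between them (0.0050 ± 0.29). Oxct1 had 1032 and 1586 CPM in immune complex kidneys, against 1174 and 1241 CPM in saline kidneys, and again the saline values lay between (0.12 ± 0.24). Acat1, the mitochondrial thiolase that splits acetoacetyl-CoA, had 403.9 and 433.6 CPM in immune complex kidneys, against 385.8 and 408.9 CPM in saline kidneys (0.076 ± 0.17). For Bdh1 and Oxct1 the immune complex replicates were further apart than the groups.

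For 32 of the 37 genes, 86.5%, the log2 difference between groups was smaller than the larger of the replicate differences, as it was for 81.8% of all tested genes. The exceptions were Acox3, Hadhb, Decr2, Cpt1a and Acad11. In saline kidneys the second library was above the first for 34 of 37 genes, including all 24 mitochondrial ones, a share of 91.9% against 50.4% of all tested genes. In immune complex kidneys the second library was above the first for 19 of 37 genes, 51.4% against 49.4% of all. Saline 1 was the lowest library for 18 of 37 genes, and the highest for 0, where it was the lowest for 23.0% of all tested genes. Without saline 1 the median difference of the 24 mitochondrial genes was -0.13, and without saline 2 it was 0.15, against 0.021 with all libraries.

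Between the immune complex replicates, 12 genes lay more than 0.5 apart on the log2 scale, and they split evenly. Acadm, Ehhadh, Bdh1, Crot, Acot1 and Oxct1 were higher in immune complex 2, by 0.62 to 1.0. Acaa1b, Acaa1a, Etfb, Eci1, Acaa2 and Pdk4 were higher in immune complex 1, and their log2 ratios of immune complex 2 over 1 ran from -0.81 to -0.52. Between the saline replicates 5 genes were that far apart, Pdk4, Acot1, Acot2, Acadm and Cpt1b. The median gap of the 37 genes between immune complex replicates, without its sign, was 0.20, smaller than the 0.36 of all tested genes. Between saline replicates it was 0.24, larger than the 0.17 of all tested genes. The proximal tubule markers also split between the immune complex libraries, with 6 of 12 higher in immune complex 2. Lrp2, the endocytic receptor megalin, had 1705 and 2436 CPM in immune complex 1 and 2, and Miox, myo-inositol oxygenase, had 1704 and 957.5 CPM. All 5 markers of the thick ascending limb, another nephron segment, were higher in immune complex 2. They summed to 5263 and 7978 CPM in immune complex 1 and 2. Higher in immune complex 2 were 0 of 6 principal cell markers and 1 of 5 intercalated cell markers. The part of these markers in the split of the oxidation genes was not tested.

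**Figure D3:**
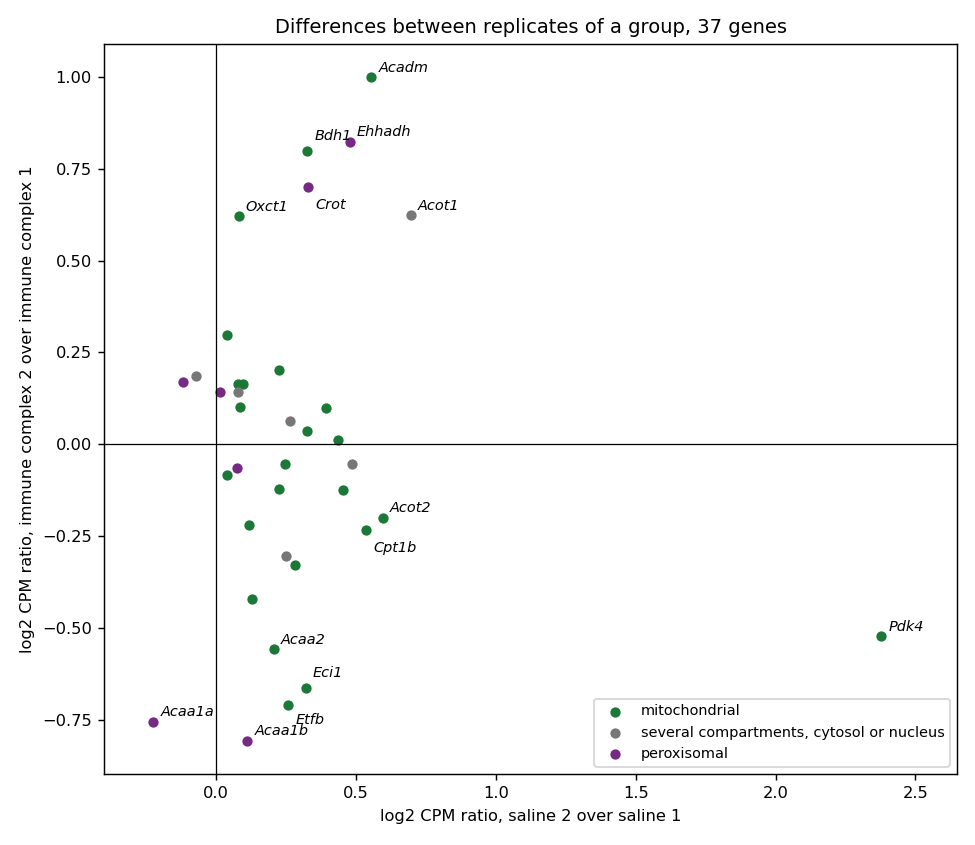
Log2 CPM ratio of replicate 2 over replicate 1 for each of the 37 genes, in immune complex kidneys (vertical) and saline kidneys (horizontal), coloured by compartment; genes beyond 0.5 on either axis are named. Of the points, 34 lie right of 0, while 19 lie above 0, from Acadm at 1.0 down to Acaa1b at -0.81.

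Summed per length, peroxisomal genes stood at 16.6% and 17.1% of the mitochondrial sum in immune complex kidneys, against 20.1% and 19.4% in saline kidneys. The means were 16.9% ± 0.345 in immune complex kidneys and 19.7% ± 0.488 in saline kidneys (SD, n = 2 each), a difference of -2.88 percentage points with no overlap. With 2 samples a group, an exact two-sided permutation test cannot give a p below 0.333, so none is given. Leaving out 1 of 4 abundant genes, chosen after their values were seen, ended this separation for Ehhadh and Acaa1b and kept it for Acadm and Oxct1. Without Ehhadh the share was 11.9% and 9.19% in immune complex kidneys, against 12.6% and 10.8% in saline kidneys, and without Acaa1b it was 9.48% and 13.1%, against 13.0% and 13.4%, with overlapping groups in both cases. Without Acadm it was 18.5% and 21.3% in immune complex kidneys, against 23.0% and 23.0% in saline kidneys, and without Oxct1 it was 18.5% and 20.1%, against 23.1% and 21.9%. Ehhadh had 124.0 and 218.8 RPKM in immune complex kidneys, against 189.5 and 255.9 RPKM in saline kidneys, while Acaa1b had 188.5 and 110.1 RPKM, against 179.3 and 178.6 RPKM. So immune complex 1 was low in Ehhadh and immune complex 2 in Acaa1b. When each gene counted alike, the mean log2 RPKM of peroxisomal minus mitochondrial genes was -0.82 and -0.72 in immune complex kidneys, against -0.55 and -0.82 in saline kidneys, and the groups overlapped. By fold change, the 7 peroxisomal genes had a median of -0.18, and the 24 mitochondrial genes one of 0.021. The peroxisomal median was 0.034 without immune complex 1 and 0.022 without immune complex 2.

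**Figure D4:**
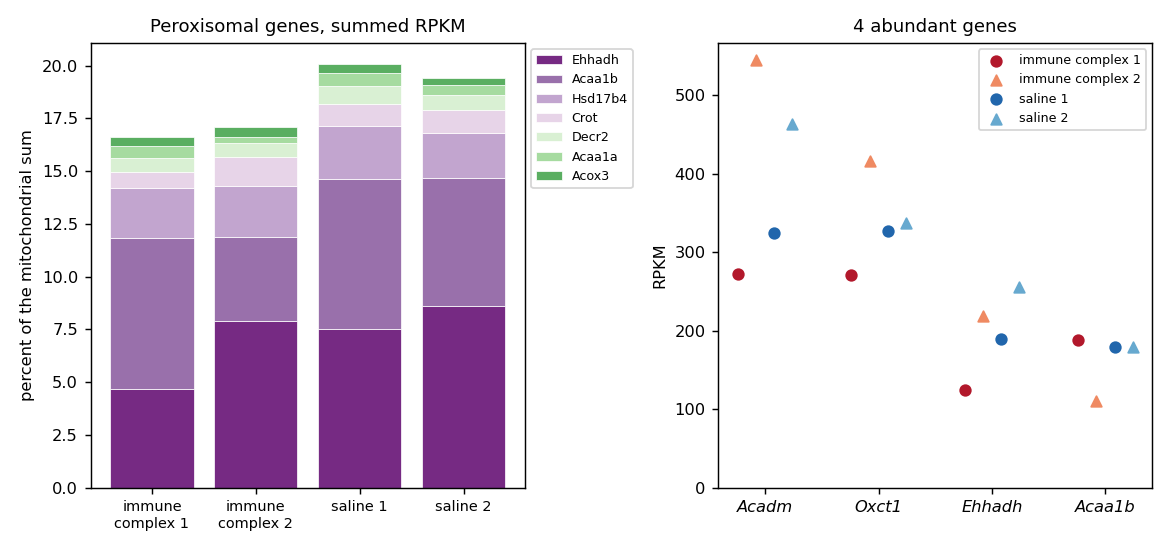
Left, the summed RPKM of the 7 peroxisomal genes as a percentage of the mitochondrial sum in each library, stacked by gene; right, RPKM of 4 abundant genes in each library. The immune complex bars reach 16.6% and 17.1% and the saline bars 20.1% and 19.4%, with Ehhadh and Acaa1b making up most of each bar.

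Markers of adipocytes, which also oxidize or store fat, differed between the libraries. The summed level of 6 white adipocyte markers was 768.6 and 551.6 CPM in immune complex kidneys, against 1.97 and 202.6 CPM in saline kidneys, and all 6 were higher in both immune complex libraries. Lep was at 0 in saline 1. The 7 brown adipocyte markers summed to 181.6 and 29.9 CPM in immune complex kidneys, against 20.7 and 77.3 CPM in saline kidneys, with Ucp1 at 54.8 and 3.64 CPM against 0.049 and 20.6 CPM. The saline library with the fewest adipocyte reads was thus the one in which 18 of the 37 genes were lowest, and the part of adipocytes in this was not tested. In a piece of tissue, fewer cells of a type and less RNA per cell cannot be told apart. The 12 proximal tubule markers summed to 15779 and 14529 CPM in immune complex kidneys, against 14854 and 15943 CPM in saline kidneys, and the groups overlapped. The 6 markers of principal cells, which line the collecting duct, summed to 763.4 and 485.6 CPM in immune complex kidneys, against 2031 and 771.3 CPM in saline kidneys. Aqp2, the vasopressin-regulated water channel, made up most of the sum, with 528.0 and 301.9 CPM in immune complex kidneys, against 1704 and 544.3 CPM in saline kidneys. Saline 1 was the highest for each of the 6 except Scnn1b, where immune complex 1 was, and their part in the values of saline 1 was not tested. The 6 skeletal muscle markers summed to 9.40 CPM at most, in immune complex 2.

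Beyond the 37 genes, 40 other genes of fatty acid oxidation and ketone metabolism were tested, and 0 were called by edgeR's quasi-likelihood test. Before adjustment 2 had a p under 0.05 by each of edgeR (4.59% of all tested genes), DESeq2 (615 of 16334) and limma-voom (742 of 16334). DESeq2 and limma-voom called 0 of the 40. Of the 40, 24 differences were above 0 and 16 below, with a median of 0.067. Groups were apart for 8 higher and 3 lower genes, 20% and 7.5%, against 15.4% and 14.6% of all tested genes. Acot3, a peroxisomal thioesterase in the same cluster as Acot1 and Acot2, had 33.9 and 35.8 CPM in immune complex kidneys, against 49.5 and 60.2 CPM in saline kidneys (-0.66 ± 0.18). Abcd2, a peroxisomal importer of very long-chain acyl-CoA that is abundant in fat, had 9.77 and 13.8 CPM in immune complex kidneys, against 0.59 and 3.97 CPM in saline kidneys (2.36 ± 0.71). Echdc1, which clears malformed acyl-CoA, had 47.0 and 55.1 CPM in immune complex kidneys, against 36.9 and 40.9 CPM in saline kidneys (0.39 ± 0.18). The groups were apart for all 3 of these genes.

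Of 28 tested genes of fatty acid uptake, storage and PPAR response, 20 differences were above 0 and 8 below, with a median of 0.25. Without overlap, 9 genes were higher and 1 lower, 32.1% and 3.57%, against 15.4% and 14.6% of all tested genes. By edgeR's quasi-likelihood test 0 were called, with 4 at an unadjusted p under 0.05, where 4.59% of all tested genes were. DESeq2 and limma-voom also called 0. Each had 5 at an unadjusted p under 0.05, against 615 (DESeq2) and 742 (limma-voom) of all 16334 tested genes. Plin4, a lipid droplet coat protein of adipocytes, had 44.7 and 47.7 CPM in immune complex kidneys, against 2.02 and 16.7 CPM in saline kidneys (2.30 ± 0.77). Fabp4, the adipocyte fatty acid carrier, had 625.9 and 501.5 CPM in immune complex kidneys, against 52.6 and 238.2 CPM in saline kidneys (1.95 ± 0.62). Cyp4b1, a cytochrome P450 that hydroxylates fatty acids, had 452.5 and 610.9 CPM in immune complex kidneys, against 268.3 and 348.3 CPM in saline kidneys (0.79 ± 0.23). Like the white adipocyte markers, Plin4, Fabp4 and Abcd2 were higher in both immune complex libraries, with saline 1 lowest. Plin4 and Abcd2 were higher in immune complex 2 than in 1, as were 3 of the 6 white adipocyte markers, though not their sum. The brown adipocyte sum was lower in immune complex 2 than in saline 2 (29.9 against 77.3 CPM), unlike Plin4, Fabp4 and Abcd2. Of the 7 brown adipocyte markers, 2 were higher in both immune complex libraries. The part of adipocytes in these differences was not tested.

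In the authors' deposited table of their own comparison, all 37 genes were listed and 0 had an adjusted p under 0.05, among 80 of 16128 listed genes. The lowest unadjusted p of a member in the authors' deposited table was 0.0590, for Acot2. That table is coded saline over immune complex, so its fold changes have the opposite sign for all 37 genes.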

How the data were processed

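RNA of a kidney piece was sequenced from 2 immune complex and 2 saline samples. STAR 2.5.2b, DESeq2 and build GRCm38 are named in the submitters' processing notes; for the counter and its strand setting the sources used here give nothing. Per the file headers, the authors deposited raw read counts per gene (all, uniquely placed, in exons and in introns), RPKM values, and a table with a log2 fold change, p-value and adjusted p-value. For all 37 members, RPKM was exon reads over exon length and library size to within a relative 0.001. Intron reads can belong to overlapping genes, and an alternative used exon reads alone.

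Total gene reads (19675879 to 22791960 per library) entered edgeR 4.0.16 under R 4.3.3 (glmQLFit and glmQLFTest after filterByExpr and TMM; 2 residual and 4.61 prior degrees of freedom; biological coefficient of variation 0.212) with Benjamini-Hochberg adjustment at 0.05. Of 38924 genes, 16334 were tested. Standard errors are fold changes over the root of F. CPM uses TMM-scaled library sizes. Alternatives were DESeq2 1.42.0, limma-voom (limma 3.58.1), other scaling, reads and filters, a replicate block and leaving out each library; the procedure was tested on simulated data. Members and lists were chosen with earlier results of these data known. Values in every library are given for set members of each role and the 8 with the smallest p, and for the 3 with the smallest p of each further list; other members named with values were chosen after these were seen. Promoter windows are from RefSeq, coding sequences from GENCODE M21. Acaa2 and Hsd17b4 sequences were not used here.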

Additional observations from a re-analysis of the deposited data

How the results depend on the processing

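The labels share replicate numbers between the groups without saying that they pair samples, and deviations of same-numbered samples correlated at -0.135. Over all genes, edgeR called 0, and 2 without the filter on low counts, 1 with reads placed at 1 location, 55 with a replicate block, 160 with the crossed block (added after seeing the data), and 0 to 279 when a library was left out (47 without saline 1, 279 without saline 2, 0 without either immune complex library). DESeq2 called 100. Of the 37 members, 0 were called under each of these except without saline 1, where it was 1 (Pdk4), so leaving out a library gave 0 to 1. The blocked fits thus changed no call of a member. For overlap counts with a library left out, no share of all tested genes was computed. Members higher without overlap numbered 6 to 18 and members lower without overlap 3 to 11 when a library was left out. The median of the mitochondrial members then ran from -0.13 to 0.15, and that of the peroxisomal members from -0.14 to 0.034. The peroxisomal share differed by -1.11 points without Ehhadh and by -1.87 points without Acaa1b, against -3.10 without Acadm and -3.15 without Oxct1 (all 4 added after seeing the data), and by -3.23 to -2.54 points when a library was left out.

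Of 276 single-gene values under an alternative, 255 kept direction and call, 20 changed sign and 1 passed the threshold. Cpt1b was 0.0082 with reads placed at 1 location, and Bdh1 was -0.0401 with the replicate block, -0.0401 with limma-voom and -0.0401 with the crossed block. When a library was left out, values of both signs were found for Pdk4 (-1.52 to 0.85), Cpt1b (-0.36 to 0.16), Cpt2 (-0.33 to 0.10), Acadm (-0.47 to 0.53), Acadvl (-0.15 to 0.18), Hadha (-0.019 to 0.20), Ehhadh (-0.79 to 0.034), Acaa1a (-0.63 to 0.12), Acaa1b (-0.64 to 0.17), Acot1 (-0.47 to 0.26), Bdh1 (-0.45 to 0.35) and Oxct1 (-0.23 to 0.39). Of all 37 members, listed here or not, 13 kept their sign whichever library was left out, and 31 under the other alternatives. A fit with 1 library left in a group assumes that it varies like the other group. The cause of these shifts was not tested.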
